A study of Mus musculus with 2 samples.

Results

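The genes described here are 10 of the 31053 genes counted in each library of the embryonic day 11 aorta-gonad-mesonephros (AGM) region. They encode proteins of macrophages for complement, uptake and sensing: C1qa, C1qb, C1qc, Mrc1, Cd68, Lyve1, Trem2, Cx3cr1, Adgre1 and Fcrls. They were chosen by name, and their UMIs (molecules counted once each) were summed over barcodes with at least 2000 UMIs and under 10% mitochondrial UMIs. Barcodes were placed in classes by gates of other genes, none of the 10 among them. In both libraries these genes were highest in macrophages. At least 10-fold above every other gated class stood 7 of the 10 in PDGFRβ+/+ (WT) and 9 in PDGFRβ-/- (KO) embryos, against 1.25% and 1.38% of all genes tested. With CPM averaged over barcodes the numbers were 3 in WT and 1 in KO, and the share of all genes was not computed for averaged CPM. Lyve1 was an exception in both libraries, through the endothelium. It was also the 1 gene of the 10 whose macrophage level differed by more than 1.5-fold between the libraries, beside 8.77% of all genes tested. With CPM averaged over barcodes, the log2 ratio of Lyve1 in KO over WT was -0.30, short of 1.5-fold.

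C1qa, C1qb and C1qc encode the chains of C1q, the recognition protein that starts the classical complement pathway and tags debris and dying cells for uptake. Macrophages are its main source in many tissues. Mrc1 (CD206) is a mannose receptor that takes up glycoproteins, Cd68 a lysosomal glycoprotein of phagocytes, and Lyve1 a hyaluronan receptor of some tissue macrophages and of lymphatic and venous endothelium. Trem2 is a lipid-sensing receptor that signals through the adaptor Tyrobp, Cx3cr1 the receptor of the chemokine fractalkine, Adgre1 the F4/80 antigen, and Fcrls a receptor related to Fc receptors that is known from microglia. Macrophages of the yolk sac are among the first blood cells to enter embryonic tissues, and those around the dorsal aorta lie close to where hematopoietic stem cells arise.

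The 3 C1q genes lie side by side on the minus strand of chromosome 4 within 18.675 kb of GRCm38, C1qa at 136895917 to 136898803, C1qc at 136889804 to 136893065 and C1qb at 136880129 to 136886187. Mrc1 lies on chromosome 2 (14229392 to 14332057), Fcrls on chromosome 3 (87250758 to 87263738), Lyve1 on chromosome 7 (110850607 to 110863239) and Cd68 on chromosome 11 (69664213 to 69666153). Chromosome 17 holds both Trem2 (48346401 to 48354147) and Adgre1 (57358691 to 57483527). The GENCODE model of Cx3cr1 on chromosome 9 (119901616 to 120069879) also spans other genes on the same strand, Gorasp1, Csrnp1 and Xirp1 among them, so reads there could be split between models. Upstream sequence from RefSeq (GRCm38.p6) was at hand for 7 of the 10 genes, all but C1qa, Adgre1 and Lyve1. The letters GAGGAA, the core of the site of the macrophage factor PU.1, were sought on both strands (TTCCTC on the other). The window was the 250 bases before the RefSeq start, which can differ from the GENCODE start used for the positions above. They occurred in 6 of the 7 windows, all but that of Cx3cr1, and in 23.3% of all 32851 windows of that length. The match stood 30 bases before the RefSeq start in C1qb, 40 in Trem2, 144 in Fcrls, 193 in C1qc and 225 in Cd68. Mrc1 had 3 matches at 35, 167 and 180 bases. The windows of C1qc, Mrc1 and Fcrls reach into the gene spans given above, and that of Cx3cr1 lies wholly inside. The Fcrls match lies inside the span of its gene. A match of letters is a description and not a site. The windows shown belong to the most abundant gene of the set with its neighbour on the chromosome, the gene with several matches, and the gene with the highest KO over WT ratio, each 5′ to 3′ on the strand of the gene with matches in capitals. They cover chr4:136886201-136886450 and chr4:136893066-136893164 (minus strand), chr2:14229164-14229391 and chr17:48346151-48346400 (plus strand), cut where the GENCODE gene begins.
C1qb: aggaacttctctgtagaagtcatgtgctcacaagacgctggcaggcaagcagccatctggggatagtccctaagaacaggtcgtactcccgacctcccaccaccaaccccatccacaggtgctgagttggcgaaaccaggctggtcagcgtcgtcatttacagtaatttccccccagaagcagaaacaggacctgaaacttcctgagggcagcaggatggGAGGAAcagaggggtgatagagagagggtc
C1qc: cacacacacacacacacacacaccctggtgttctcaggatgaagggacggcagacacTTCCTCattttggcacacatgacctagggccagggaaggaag
Mrc1: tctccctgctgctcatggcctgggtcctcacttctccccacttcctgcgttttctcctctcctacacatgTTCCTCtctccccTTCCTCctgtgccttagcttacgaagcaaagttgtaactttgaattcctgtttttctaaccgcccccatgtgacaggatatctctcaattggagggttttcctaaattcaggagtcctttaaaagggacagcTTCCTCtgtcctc
Trem2: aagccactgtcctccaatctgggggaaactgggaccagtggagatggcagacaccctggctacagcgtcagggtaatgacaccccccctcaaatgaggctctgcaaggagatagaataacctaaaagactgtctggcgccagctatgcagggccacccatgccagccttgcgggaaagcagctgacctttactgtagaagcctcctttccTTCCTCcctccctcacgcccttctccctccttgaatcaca

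Whole AGM regions of mouse embryos were dissociated with collagenase, and RNA of single cells was sequenced from its 3′ end on the 10x Chromium platform. There was 1 library of PDGFRβ+/+ (WT) and 1 of PDGFRβ-/- (KO) embryos, each loaded for the recovery of 7000 cells, with no sorting. The KO embryos carried the deletion in all of their cells, and how many embryos a library held is not given in the sources used here. With 1 library per genotype there is no test and no replicate error: every interval is a 95% interval that covers counting error only, and a difference between the libraries cannot be told apart from a difference between embryos. Xist stood at 678 CPM (the UMIs of a gene scaled to all UMIs of the class) in WT macrophages and had no UMI in KO macrophages, so embryo sex, library and genotype moved together.

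The WT library kept 8253 barcodes and the KO library 8165, of 179743201 and 174597654 UMIs in all. Pdgfrb, the targeted gene, stood at 55.3 CPM in WT against 8.81 CPM in KO mesenchymal barcodes. The macrophage gate (a Csf1r UMI with at least 3 of 7 white cell genes) held 139 WT barcodes, or 1.68% (1.42 to 1.99%), and 111 KO barcodes, or 1.36% (1.12 to 1.63%), and the log2 ratio of the KO over the WT share was -0.31 (-0.68 to 0.06). Their median depths were 18708 and 17054 UMIs, and no macrophage barcode was shared between the libraries. Of 6 macrophage genes outside the gate and the 10, among them Lyz2, Pf4 and Fcgr3, all 6 were detected in this class at 3177 CPM in WT against 3252 CPM in KO in sum. Other white cells held 5 of the 6 at 2422 CPM in WT against 3728 CPM in KO, with Pf4 in WT (1131 CPM) and Lyz2 in KO (2850 CPM) above their macrophage levels, so this list did not set white cells with and without Csf1r apart. The other gated classes were erythroid (673 WT and 203 KO barcodes), endothelial (79 and 74), mesenchymal (4931 and 5306) and other white cells without Csf1r (31 and 44), the last holding mast cell, granulocyte and platelet genes. Barcodes that passed several gates were set apart.

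The macrophages took 1.68% of the WT barcodes and held 79.2% of all UMIs of the 10 genes in kept barcodes, and in KO they held 84.8%. The 10 genes together stood at 8774 CPM (8663 to 8886) in WT macrophages and 9864 CPM (9729 to 10000.4) in KO. Other white cells followed with 507 CPM in WT against 616 CPM in KO. Endothelial barcodes held 20.4 and 15.3 CPM, mesenchymal barcodes 3.82 and 3.28 CPM, and erythroid barcodes 1.93 and 0.251 CPM. Free RNA, taken from barcodes of 1 to 100 UMIs, held 157 CPM in WT against 158 CPM in KO, well above the stromal and erythroid classes.

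**Figure D1:**
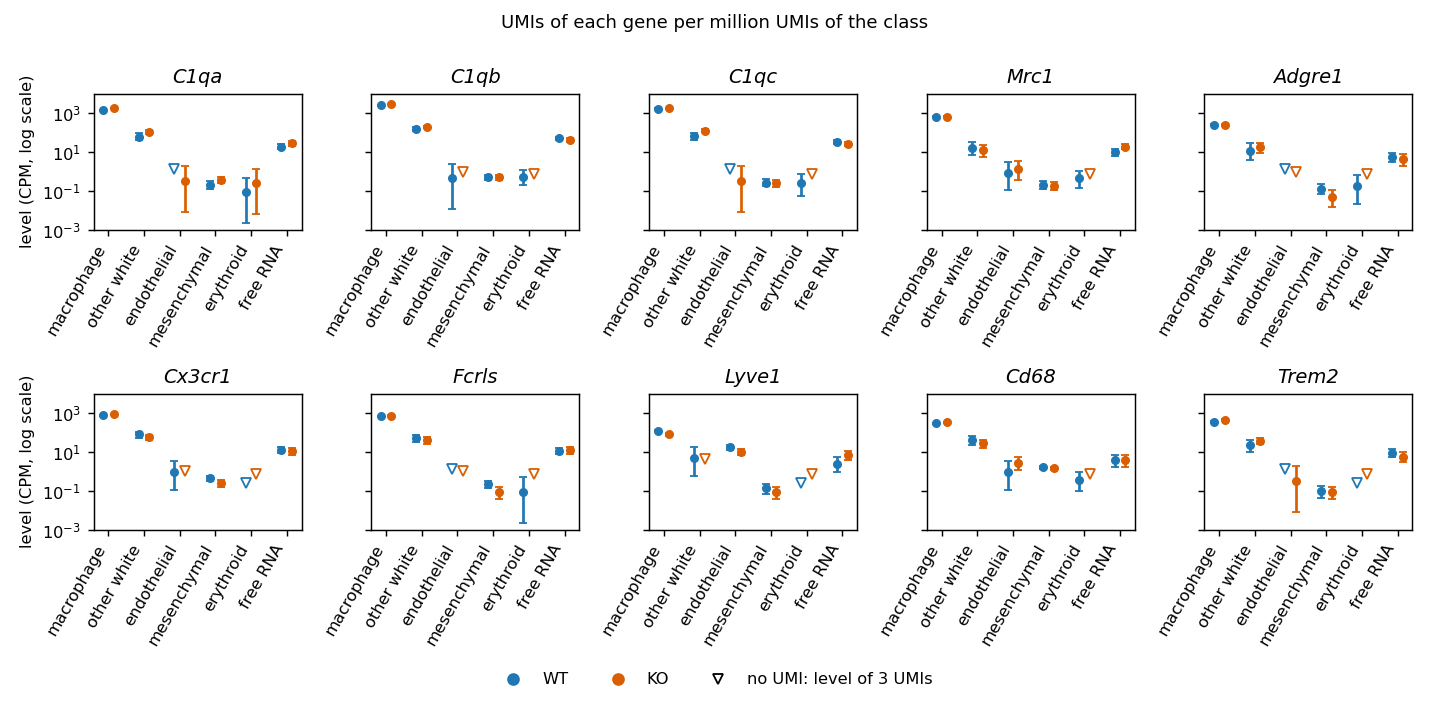
Level of each gene in CPM (log scale) in 5 gated classes and in free RNA, WT in blue and KO in orange, with 95% Poisson intervals; open triangles mark classes with no UMI, drawn at the level of 3 UMIs. Each gene was highest in macrophages, between 78.4 and 2945 CPM, and Lyve1 alone stood above 10 CPM in endothelial barcodes.

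The C1q genes were the most abundant of the set. Because a 3′ library counts 1 tag per molecule, these levels were not divided by gene length. C1qb stood at 2503 CPM (2444 to 2563) in WT macrophages and 2945 CPM (2872 to 3020) in KO, rank 66 of 13894 detected genes in WT and 59 of 13459 in KO. C1qc followed at 1737 CPM (1688 to 1787) and 1762 CPM (1705 to 1820), and C1qa at 1447 CPM (1402 to 1493) and 1839 CPM (1781 to 1898). The order of the last 2 was thus C1qc before C1qa in WT and the reverse in KO, where their intervals overlapped.

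C1q message outside white cells was at the level of single UMIs. C1qb had 55 UMIs over 4931 WT mesenchymal barcodes and 55 over 5306 in KO, which gave 0.515 CPM in each library. It had 1 UMI in WT endothelial barcodes and none in KO, which allows up to 0.995 CPM there. The WT macrophage level of C1qb was 4864-fold the mesenchymal level, and the KO level 5723-fold. Barcodes that passed both gates, 30 in WT and 16 in KO, were in neither class, so these folds leave them out. C1qa had 0 UMIs in WT endothelial barcodes, at least 1085-fold lower than in macrophages by the floor of 3 UMIs. In other white cells C1qb reached 155 CPM in WT against 195 CPM in KO, 16.1-fold and 15.1-fold below macrophages. Most of these barcodes held none of it, 18 of 31 in WT and 25 of 44 in KO, while the highest reached 3658 and 6541 CPM. No barcode of this class held more than 14 C1qb UMIs in WT or 17 in KO. The median depth of the class was 5187 UMIs in WT and 15554.5 in KO, against 18708 and 17054 in macrophages. The class is gated by the absence of Csf1r UMIs, so a macrophage whose Csf1r was missed could fall in it, which was not tested. All 3 C1q genes had a UMI in 7 WT and 16 KO barcodes of other white cells.

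Among the receptors, Mrc1 stood at 648 CPM (618 to 679) in WT against 651 CPM (617 to 687) in KO macrophages. Its next level was 16.7 CPM in WT against 12.2 CPM in KO other white cells, 38.7-fold and 53.5-fold lower. All 7 UMIs behind the WT value came from 1 barcode. In endothelium, where Mrc1 is known from lymphatic and sinusoidal vessels, it had 2 UMIs in WT (0.889 CPM) and 4 in KO (1.33 CPM). Both levels lay below the 9.66 and 19.1 CPM of Mrc1 in free RNA. Cx3cr1 had 750 CPM (718 to 783) and 852 CPM (813 to 893), and Fcrls 660 CPM (630 to 691) and 720 CPM (684 to 758). In WT the intervals of Mrc1 and Fcrls overlapped and Cx3cr1 lay above both.

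Trem2 stood at 345 CPM (323 to 368) in WT against 446 CPM (417 to 475) in KO macrophages. Cd68 followed at 301 CPM (281 to 323) and 327 CPM (302 to 352), Adgre1 at 258 CPM (239 to 278) and 243 CPM (223 to 266), and Lyve1 at 125 CPM (112 to 139) and 78.4 CPM (66.8 to 91.4). Lyve1 was the lowest of the 10 in both libraries, yet the highest of them in the endothelium. In erythroid barcodes, no gene of the 10 had more than 6 UMIs in WT, and in KO 1 UMI of C1qa was the whole count of the set.

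The genes tested for the 10-fold difference were the 5695 with at least 50 macrophage UMIs in WT and the 4772 in KO. The WT exceptions among the set were Cx3cr1 and Cd68, with 78.9 and 40.6 CPM in other white cells, and Lyve1. The WT exception of Cx3cr1 rests on 1 of 31 barcodes, which held 28 of the 33 UMIs and left 5 in the others. Against the erythroid, endothelial and mesenchymal classes alone, 9 of 10 passed in both libraries beside 5.36% and 5.89% of all such genes, Lyve1 being the exception through the endothelium. The median log2 ratio of the 10 over the highest of these 3 classes was 11.02 in WT and 12.02 in KO, against -0.19 and -0.20 over all such genes. A class without UMIs counted as 0 in these ratios, which raises them. Adgre1 in KO stood at 12.34 this way, while its endothelial floor of 3 UMIs alone gives 7.93. Barcodes that passed the macrophage gate and another gate were outside these classes. When CPM were averaged over barcodes instead of summed, the number at least 10-fold above every other class was 3 in WT and 1 in KO. The share of all genes was not computed for averaged CPM.

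Genes outside the set with the same pattern were sought by the macrophage level over the highest other class, taking the lower value of the 2 libraries over 4727 genes. The 10 highest that were no gate genes were Clec4n, Msr1, Cxcl2, Cxcl10, Fcna, Ccl2, Il1b, Ms4a6d, Fcgr1 and Mpeg1. A class without UMIs counted as 0 in this ranking, which raises such genes. Clec4n and Msr1 had no UMI in other white cells of either library. In WT they stood at 33.5 and 46.0 CPM, less than 10-fold above the floor of 7.17 CPM in that class. In KO the floor was 4.05 CPM, and Msr1 alone passed 10-fold. Their ranks above the set are thus not read as a result. In the same ranking Mrc1 ranked 7, C1qa 15, C1qb 21, Adgre1 24, C1qc 26, Fcrls 28, Trem2 32, Cx3cr1 46, Cd68 71 and Lyve1 74. Msr1, a scavenger receptor for modified lipoproteins, was far less abundant than the set, at 46.0 CPM in WT against 45.0 CPM in KO.

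Within the macrophage class the genes were unevenly spread over barcodes. With each barcode thinned to 2000 UMIs, a C1qb UMI was found in 84.9% (77.8 to 90.4%) of WT and 91.9% (85.2 to 96.2%) of KO macrophages, and without thinning in 88.5% and 93.7%. The background in thinned mesenchymal barcodes was 0.0811% in WT and 0.113% in KO, where the median depth before thinning was 14975 and 14109 UMIs. Thinned shares for Cx3cr1 were 68.3% and 73.9%, for Fcrls 67.6% and 65.8%, and for Mrc1 61.2% and 63.1%. Trem2 was found in 53.2% and 57.7%, Cd68 in 46.0% and 48.6%, and Adgre1 in 40.3% and 43.2%. The interval of each of these shares overlapped that of the other library. Lyve1 stood apart at 8.63% (4.54 to 14.6%) and 10.8% (5.71 to 18.1%).

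Per barcode, C1qb ran from 0 to 9821 CPM with a median of 2715 in WT, and from 0 to 7507 CPM with a median of 3129 in KO. The quartiles were 1767 and 3679 CPM in WT and 2418 and 4198 CPM in KO, and the ranges overlapped. The median of Mrc1 was 563 CPM in WT against 536 CPM in KO, with highest values of 2141 and 2270 CPM. For Lyve1 the median was 0 in both libraries while the highest barcodes reached 2496 and 2735 CPM, close to the highest values of Cx3cr1 at 2814 and 2865 CPM. Lyve1 was thus high in few barcodes and had no UMI in most.

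**Figure D2:**
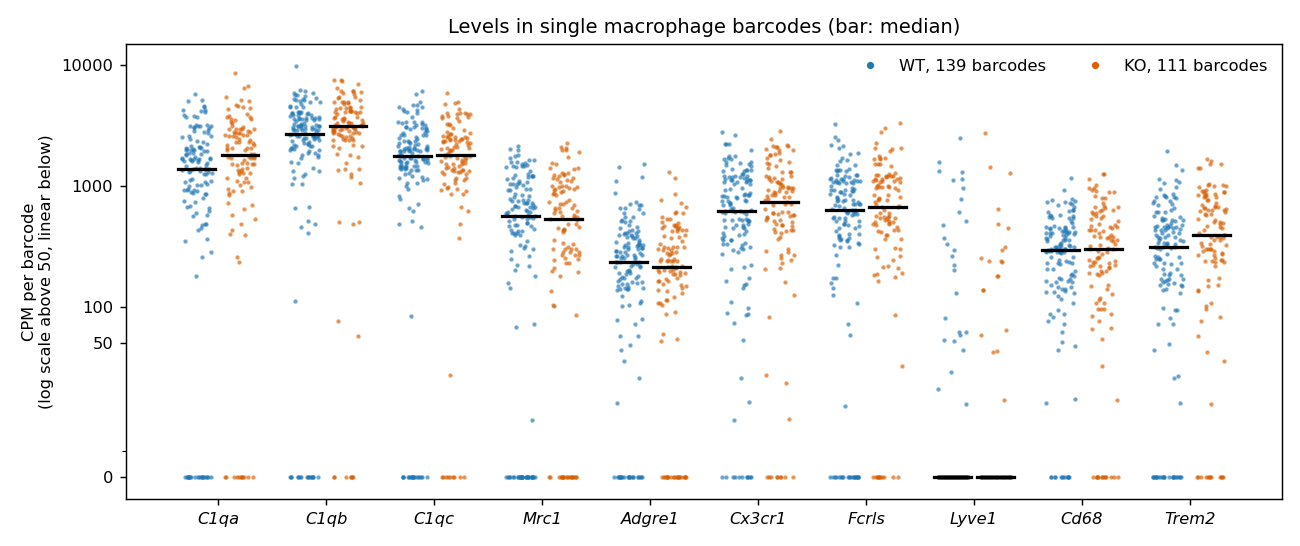
Level of each gene in CPM in single macrophage barcodes (139 WT in blue, 111 KO in orange; log scale above 50 CPM, linear below), with the median as a black bar. Lyve1 was at 0 in 111 WT and 90 KO barcodes and reached 2496 and 2735 CPM in the others, while C1qb was at 0 in 16 and 7.

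Most macrophage barcodes held nearly the whole set. The median number of the 10 genes with a UMI was 9 in both libraries, and 108 WT and 91 KO barcodes held at least 8 of them, 77.7% and 82.0%. All 10 were found in 26 WT and 19 KO barcodes. Among endothelial barcodes, 65 of 79 in WT and 57 of 74 in KO held none, and none held 8 or more. Barcodes that passed both the macrophage and the mesenchymal gate numbered 30 in WT and 16 in KO, and the 10 genes stood in them at 4157 and 3647 CPM, less than in macrophages alone. Of these, 27 and 14 held at least 8 of the genes at median depths of 33653 and 33604 UMIs.

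A small group of gated macrophages had no C1q UMI at all: 15 of 139 in WT and 7 of 111 in KO. They were not shallower than the rest, since their median depth was 21126 UMIs in WT and 28418 in KO. Mrc1 and Lyve1 had no UMI in any of them, and Fcrls had 1 UMI in each library against 761 and 804 CPM in barcodes with C1q. Cx3cr1 remained at 113 CPM in WT against 153 CPM in KO, compared with 848 and 934 CPM. Cd68 stood at 90.7 and 41.8 CPM, compared with 334 and 360 CPM. Csf1r was found in each of them because the gate requires it, at 132 and 92.8 CPM.

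The same barcodes were rich in genes of monocytes and early granulocytes. Plac8 stood at 847 CPM in WT against 1239 CPM in KO, against 65.8 and 44.3 CPM in barcodes with C1q. Prtn3, a serine protease of myeloid granules, stood at 415 and 887 CPM, against 28.9 and 6.48 CPM. Ccr2, a chemokine receptor of monocytes, stood at 143 and 209 CPM, against 13.2 and 17.3 CPM. Apoe, a lipid carrier made by tissue macrophages, went the other way, from 10864 and 13447 CPM with C1q to 1443 and 69.6 CPM without. These groups were formed by a measured value, so their differences are a description. Over all gated macrophages, 23 WT and 13 KO barcodes held a UMI of Mpo, Prtn3 or Elane. Of 5 mast cell and granulocyte genes, 3 were found in the class in each library, at 123 and 154 CPM in sum, and Ms4a2 was at 0 in both. The granulocyte genes S100a8 and S100a9 were higher, at 1298 and 524 CPM in WT against 444 and 221 CPM in KO macrophages. Without those barcodes the sum of the set was 10077 CPM in WT against 11056 CPM in KO.

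Over macrophage barcodes, the C1q genes moved together and Lyve1 did not move with them. Pearson's r of log2(1 + UMIs per 10000) between C1q genes was 0.87 to 0.91 in WT (n = 139) and 0.90 to 0.94 in KO (n = 111). Fcrls was next to them, with r of 0.74 to 0.81 in WT and 0.72 to 0.75 in KO. The 33 pairs outside the C1q and Lyve1 pairs, those of Fcrls with C1q included, had a median r of 0.58 and 0.54. Lyve1 correlated with Mrc1 at 0.42 in both libraries and with C1qb at 0.05 in both. By rank (Spearman's rho), C1qb stood with Mrc1 at 0.27 in WT and 0.18 in KO, below its r of 0.592 and 0.445. With Fcrls its rho was 0.66 and 0.60, and with Lyve1 -0.07 and -0.005. The barcodes of a library share its preparation and sequencing, and each barcode's own depth enters both values. The r of log2 depth with C1qb was -0.04 in WT and -0.18 in KO, and with Mrc1 0.28 and 0.27. These values describe cells of 1 library each and carry no test.

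**Figure D3:**
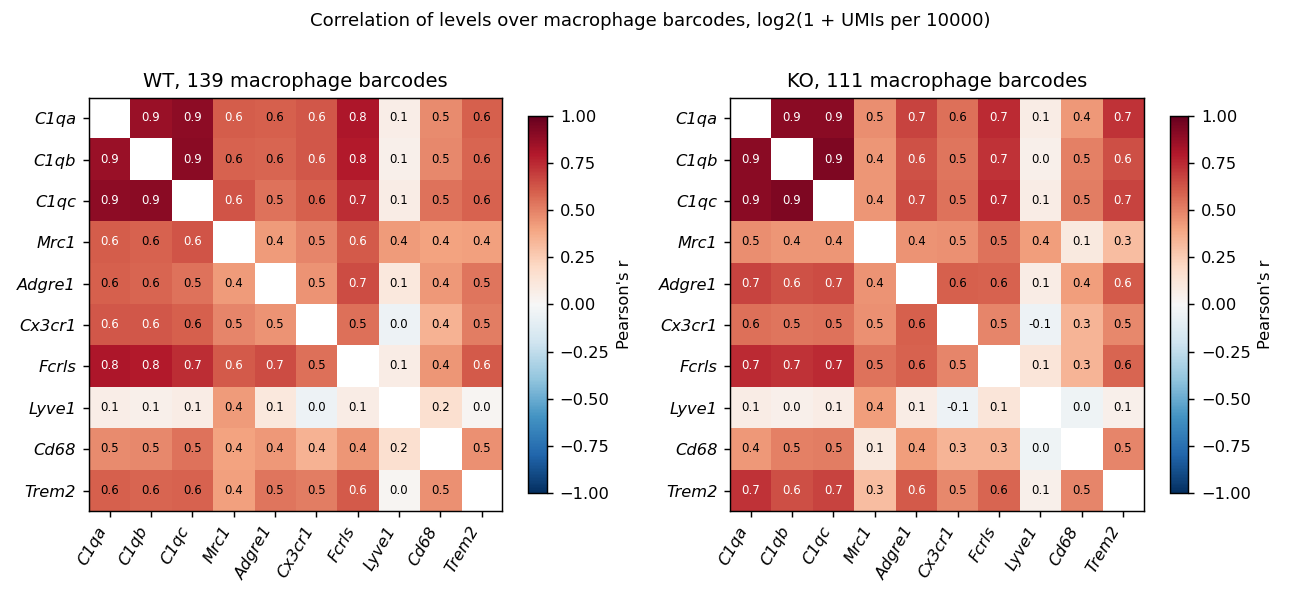
Pearson's r between the levels of the 10 genes, log2(1 + UMIs per 10000), over macrophage barcodes of WT (left) and KO (right). The C1q genes form a block of 0.87 to 0.94, and the row of Lyve1 is near 0 apart from Mrc1 at 0.42.

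Joint detection gave the same picture of Mrc1 and Lyve1. Without thinning, all 28 WT and all 21 KO macrophages with a Lyve1 UMI also held Mrc1, against 21.8 and 17.4 under independence. Mrc1 was present without Lyve1 in 80 and 71. Cx3cr1 was likewise found in all 28 WT and in 20 of the 21 KO macrophages with Lyve1, against 25.8 and 19.3 under independence. In thinned barcodes 12 WT macrophages held both Mrc1 and Lyve1, against 7.34 if the detections were independent, and 10 in KO against 7.57. In thinned KO barcodes, 2 held Lyve1 without Mrc1. Lyve1 and Cx3cr1 occurred together in 8 thinned WT barcodes, against 8.20 under independence, and in 11 in KO, against 8.86. Mrc1 and Cx3cr1, which mark different macrophages in some adult tissues, were found in the same barcode in 107 of 139 WT and 90 of 111 KO macrophages, against 99.5 and 84.5 under independence.

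Genes of other lists were set beside the 10 in the same way. Mrc1 correlated with Stab1, an endocytic scavenger receptor, at 0.84 in WT and 0.67 in KO, and with Maf, a macrophage transcription factor, at 0.69 and 0.61. Lyve1 correlated with F13a1, coagulation factor XIII of macrophages, at 0.47 and 0.37, and with Pf4, a chemokine of platelets and embryonic macrophages, at 0.44 and 0.41. C1qb correlated with Apoe at 0.80 and 0.90 and with the cathepsin Ctsb at 0.81 and 0.77. With Plac8 its r was -0.73 and -0.84, while the rank correlation (Spearman's rho) was weaker at -0.52 and -0.48. Plac8 had a UMI in 17 of 124 WT and 13 of 104 KO barcodes with C1q. Without C1q it had one in 14 of 15 and 7 of 7.

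The comparison of the genotypes asks how the macrophage genes stood in an AGM without PDGFRβ, whose own message was nearly absent from macrophages, with 2 UMIs in WT and 0 in KO. In bulk sums of a class, the number of expressing cells and the level per cell cannot be told apart, and fewer positive cells or fewer UMIs per cell give the same value. In macrophages, 8 of the 10 genes were higher in KO and 2 lower, and their ratios of KO to WT level had a median of 0.12 on the log2 scale, or -0.078 without Csf1r in the gate. The median was -0.02 over all 7319 genes with at least 50 macrophage UMIs. The counting interval lay above 0 for 5 genes, below 0 for 1 and held 0 for 4. These counts and that of genes higher in KO were not made over all genes, and intervals narrow with abundance. They are thus not read as a result about the set. More than 1.5-fold differed 1 of the 10, Lyve1, beside 8.77% of all 7319 genes (2.69% higher and 6.08% lower) and 4.13% of those with at least as many UMIs as Lyve1, so the count is near the background.

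**Figure D4:**
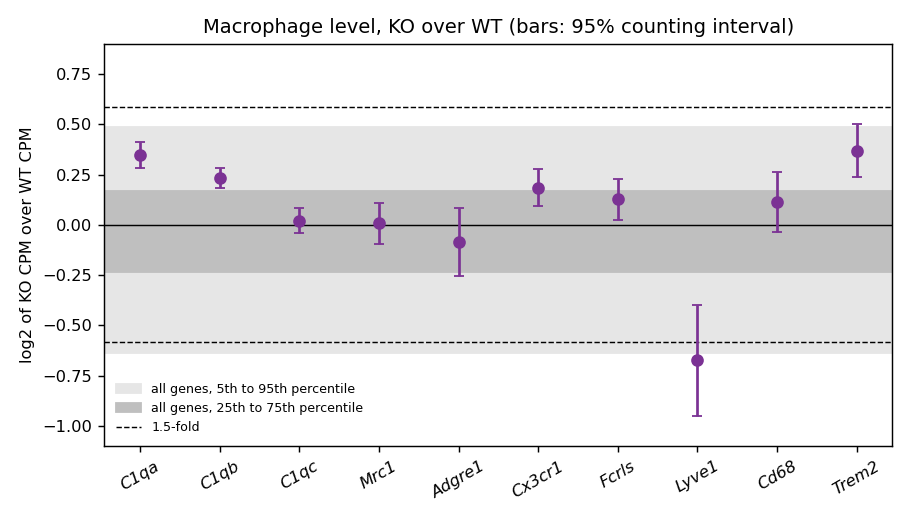
Log2 ratio of the macrophage level in KO over WT for each gene, with 95% counting intervals; grey bands hold the middle 50% and 90% of 7319 genes and dashed lines mark 1.5-fold. C1qa and Trem2 were highest at 0.35 and 0.37, and Lyve1 was below the band at -0.67.

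Trem2 had the highest ratio, 0.37 (0.24 to 0.50), or 1.29-fold. C1qa followed at 0.35 (0.28 to 0.41), C1qb at 0.23 (0.18 to 0.28) and Cx3cr1 at 0.18 (0.09 to 0.28). The third C1q gene did not share the difference, with C1qc at 0.02 (-0.04 to 0.08), and the intervals of C1qa and C1qb lay wholly above that of C1qc. Over barcodes, the quartiles of C1qa were 661 and 2114 CPM in WT and 1001 and 2829 CPM in KO and overlapped widely. Fcrls stood at 0.13 (0.03 to 0.23), Cd68 at 0.12 (-0.03 to 0.26), Mrc1 at 0.01 (-0.10 to 0.11) and Adgre1 at -0.08 (-0.25 to 0.08). The sign was read in 15 alternative settings, which include the 2 added after the data had been seen and leave out those of thinning. It held in all 15 for C1qa, C1qb, Trem2, Adgre1 and Lyve1. It turned in at least 1 of them for C1qc, Mrc1, Cx3cr1, Fcrls and Cd68.

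Lyve1 stood at 125 CPM in WT against 78.4 CPM in KO macrophages, a log2 ratio of -0.67 (-0.95 to -0.40), or 0.627-fold. The share of macrophages with a Lyve1 UMI was close in both libraries, 28 of 139 (20.1%, 13.8 to 27.8%) and 21 of 111 (18.9%, 12.1 to 27.5%). Single barcodes carried a large part of the UMIs. The top WT barcode held 50 of 340 UMIs and the top KO barcode 45 of 162, or 14.7% and 27.8%. Without the top barcode of each library the ratio was -0.91, and with CPM averaged over barcodes it was -0.30, short of 1.5-fold. With barcodes under 5% mitochondrial UMIs it was -1.72 over 66 WT and 47 KO macrophages, where C1qa at 0.62 and Trem2 at 0.73 also passed 1.5-fold. The share of all genes past 1.5-fold was not computed for this smaller set of barcodes.

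In the endothelium Lyve1 had 39 UMIs in WT (17.3 CPM, 12.3 to 23.7) and 31 in KO (10.3 CPM, 6.99 to 14.6). They came from 9 of 79 WT barcodes and 5 of 74 KO barcodes. The WT barcodes held 14, 13, 4, 2, 2, 1, 1, 1 and 1 UMIs, and the KO barcodes 25, 3, 1, 1 and 1, so 1 barcode held most of the KO count. Without the top barcode the level was 11.4 CPM in WT against 2.02 CPM in KO. No Lyve1-positive endothelial barcode held a UMI of C1qa, C1qb, C1qc or Csf1r in either library. In WT, Nr2f2, a venous and lymphatic factor, stood at 316 CPM in Lyve1-positive barcodes and 90.8 CPM in the others, and Stab2, a hyaluronan receptor of sinusoids, at 38.2 and 7.44 CPM. In KO, Nr2f2 stood at 176 and 166 CPM and Stab2 at 31.4 and 8.16 CPM. Prox1, the lymphatic master regulator, stood at 13.6 CPM in Lyve1-positive and 54.7 CPM in other WT barcodes, and at 15.7 and 41.5 CPM in KO. The Lyve1-positive values rest on 5 Prox1 UMIs in each library. Detection of Prox1 went the other way, in 4 of 9 and 10 of 70 WT barcodes and in 2 of 5 and 14 of 69 KO barcodes. Flt4 was also lower in CPM in Lyve1-positive barcodes, at 54.5 and 74.9 CPM in WT and 59.7 and 80.9 CPM in KO. It was found in 6 of 9 and 36 of 70 WT and in 4 of 5 and 48 of 69 KO barcodes. Of the same list, Stab1, Aplnr, Ephb4, Emcn and Reln were higher in Lyve1-positive barcodes in WT. In KO, Aplnr and Emcn were higher there, while Stab1, Ephb4 and Reln were lower. Reln had 1 UMI in Lyve1-positive barcodes of each library. Lyve1-positive barcodes were deeper, with medians of 45546 and 65018 UMIs against 15371 and 28217.

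In mesenchyme, Cd68 was the gene of the set with the most UMIs. It had 172 UMIs in WT and 151 in KO, or 1.61 CPM (1.38 to 1.87) and 1.41 CPM (1.20 to 1.66), while no other gene of the set passed 0.515 CPM there. It made up 42.2% (37.3 to 47.1%) and 43.1% (37.9 to 48.5%) of the set's UMIs in mesenchyme, against 3.44% and 3.31% in macrophages and 2.31% and 2.41% in free RNA. Per C1qb UMI, mesenchymal barcodes held 3.13 Cd68 UMIs in WT and 2.75 in KO. Macrophages held 0.120 and 0.111, and free RNA 0.0692 and 0.0900. The Cd68 UMIs were spread thinly, over 171 WT and 145 KO mesenchymal barcodes. The level of Cd68 in mesenchyme lay below its level in free RNA. There it had 9 of 2483871 UMIs in WT and 9 of 2357914 in KO.

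**Figure D5:**
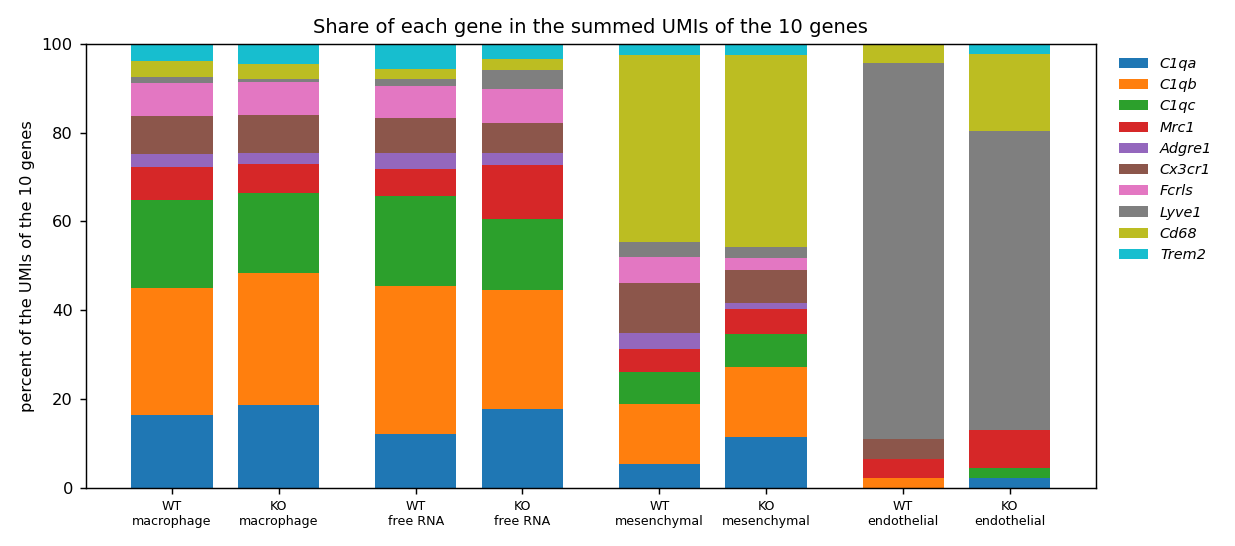
Share of each gene in the summed UMIs of the 10 genes, in percent, for macrophages, free RNA, mesenchymal and endothelial barcodes of each library. The C1q genes lead in macrophages and free RNA, Cd68 leads in mesenchyme with 42.2% and 43.1%, and Lyve1 leads in endothelium with 39 and 31 of 46 UMIs each.

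Genes that act with the set were taken from lists and read in the same macrophage sums. Of 30 other complement genes, 9 had at least 50 UMIs, and 1 of these 9 was over 1.5-fold lower in KO and 0 higher, beside 6.08% lower and 2.69% higher of all 7319 genes, with a median log2 ratio of -0.26. Calr, a chaperone that also binds C1q, was the most abundant at 729 CPM in WT against 838 CPM in KO. C3ar1, the receptor of the C3a fragment, stood at 254 and 282 CPM, and the C5a receptor C5ar1 at 120 and 87.1 CPM. The gene past 1.5-fold was Cd93 at -0.64 (-1.54 to 0.21) with 37 and 18 UMIs. Cd93 stood at 13.6 CPM in WT against 8.71 CPM in KO macrophages and at 246 and 273 CPM in endothelium, whose part in the macrophage values was not tested. The median of this list was thus below 0, while C1qa and C1qb were higher in KO.

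Of 26 other scavenger and uptake genes, 18 had enough UMIs and 1 was over 1.5-fold lower, Mfge8 at -1.38 (-2.44 to -0.42), a bridge between dying cells and phagocytes, beside 6.08% lower of all 7319 genes. Mfge8 stood at 15.1 CPM in WT against 5.81 CPM in KO macrophages, below its 98.8 and 74.9 CPM in mesenchyme and 169 and 137 CPM in endothelium, whose part in the difference was not tested. Their median was -0.09. Stab1 led with 699 CPM in WT against 602 CPM in KO, followed by the Fc receptors Fcgr3 at 494 and 447 CPM and Fcgr1 at 208 and 208 CPM, and by Gas6, a ligand of uptake receptors, at 175 and 216 CPM. Of the 6 measured genes of the Trem2, CX3CR1 and CSF1R axes none passed 1.5-fold, with a median of 0.08. Apoe, a Trem2 ligand, stood at 9604 CPM in WT against 12052 CPM in KO, a ratio of 0.33 (0.30 to 0.35) close to that of Trem2. Tyrobp, which belonged to the gate, stood at 1455 and 1652 CPM and Csf1r, the gate's main gene, at 539 and 529 CPM.

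None of 16 measured genes of lysosomes and lipid handling passed 1.5-fold, and 11 of them were above 0 with a median of 0.08. Ctsb stood at 2502 and 2310 CPM, Ctsd at 1139 and 1234 CPM, Lgmn at 1048 and 1057 CPM and Ctsz at 949 and 1081 CPM, proteases of the lysosome in each case. The 7 measured microglia-type genes were all above 0 with a median of 0.27. Counts above 0, here and for the lysosome list, were not made over all genes and are not read as a result. Of the microglia-type genes 2 passed 1.5-fold upward, beside 2.69% of all 7319 genes. Those were Olfml3 at 0.64 (0.29 to 0.99) and Sparc at 0.82 (0.29 to 1.37), and Sparc is a matrix gene whose level in endothelium was 1452 CPM in WT. Olfml3 stood at 68.7 CPM in WT mesenchyme against 46.3 CPM in WT macrophages, and Tmem119, another gene of the list, at 59.3 against 11.4 CPM. The part of these tissues in the macrophage values was not tested. P2ry12, a purine receptor of microglia, stood at 61.0 CPM in WT against 61.9 CPM in KO, and Gpr34 at 88.6 and 107 CPM.

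Of 13 measured embryonic macrophage regulators and markers, 9 were above 0 with a median of 0.19, a count likewise not made over all genes. F13a1 alone passed 1.5-fold, at -0.81 (-0.97 to -0.65), beside 8.77% of all 7319 genes. F13a1 and Lyve1, which correlated over barcodes, were both lower in the KO library. Pf4 and Mrc1 also correlated with Lyve1 but were not lower, at 0.34 (0.26 to 0.41) and 0.01 (-0.10 to 0.11). Lyz2, a lysozyme, stood at 1251 and 990 CPM, Pf4 at 1035 and 1308 CPM, Maf at 799 and 737 CPM and Hmox1, a heme-degrading enzyme, at 468 and 529 CPM. Among 7 measured monocyte and granulocyte genes, S100a8 at -1.55 (-1.65 to -1.44) and S100a9 at -1.25 (-1.40 to -1.09) were lower and Mpo at 0.59 (0.18 to 0.99) higher in KO. Thus 2 of the 7 passed 1.5-fold downward and 1 upward, beside 6.08% and 2.69% of all 7319 genes, and Mpo passed only just. In other white cells the direction was the reverse for S100a8, S100a9 and Mpo. There S100a8 and S100a9 stood at 11315 and 8162 CPM in WT against 18087 and 18204 CPM in KO, and Mpo at 858 against 569 CPM. The part of that class in the macrophage values was not tested. The C1q, Mrc1 and Lyve1 ratios were measured beside these differences in granulocyte message within the macrophage class, whose part in them was not tested. Without barcodes holding Mpo, Prtn3 or Elane the ratio of Lyve1 was -0.80. Both measured genes of the venous and lymphatic list, Stab1 and Nr2f2, were below 0 in macrophages, at -0.22 and -0.23, a count not made over all genes.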

How the data were processed

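Reads of the 2 libraries were aligned and counted by the authors with Cell Ranger 3.1.0 against mm10 (GRCm38), and the deposited files hold unfiltered whole-number UMI counts of 31053 genes for every barcode. No cell calls or normalization had been applied. Barcodes with at least 2000 UMIs and under 10% mitochondrial UMIs were kept. Classes were gated by marker genes, and barcodes that passed several gates, which include doublets, were kept apart. No doublet caller was run. UMIs were summed over a class and scaled to CPM, with exact Poisson intervals. Shares have Clopper-Pearson intervals and ratios exact conditional binomial intervals, all at 95% and for counting error only. Where a class had no UMI, a floor of 3 UMIs was used. Detection was also computed after each barcode had been thinned to 2000 UMIs, and no kept barcode was shallower. Free RNA is the sum of barcodes with 1 to 100 UMIs.

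With 1 library per genotype, no test was made, and 1.5-fold and 10-fold are fixed sizes read beside all genes with at least 50 macrophage UMIs. Named genes are the 10 themselves, up to 4 of the most abundant genes of each list and those past 1.5-fold. The 10 genes ranked highest outside the set and the gates were also named. Ctsb, Plac8, Prtn3, Ccr2, Stab2 and Prox1, set beside the C1q and Lyve1 results, and Msr1 were picked after their values were seen. The rest of the venous and lymphatic list was then added beside endothelial Lyve1. Some genes that this rule would name are not reported here. The genes and lists were chosen with earlier results of these data known. Gene positions are from GENCODE M21 and upstream sequence from RefSeq, both on GRCm38. Alternatives numbered 15, and 2 more were added after the data had been seen. Gates, thinning, ratios and intervals were tested on simulated data. Python 3.11.15, numpy 2.4.6, scipy 1.17.1, pandas 2.3.3 and, for the TMM factors, edgeR 4.0.16 were used.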

Additional observations from a re-analysis of the deposited data

Results flagged for a closer look

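In the WT library, 81 of the 86 Cx3cr1 UMIs in barcodes that passed no gate came from 2 barcodes, with 49 and 32 UMIs, while the other ungated WT barcodes held 5 and the ungated KO barcodes 8. These barcodes lay outside every comparison of classes. At 20993 and 25818 UMIs in depth, their Cx3cr1 levels were 2334 and 1239 CPM, above the median of WT macrophages. Neither held a UMI of another gene of the set, of Csf1r or of the other macrophage gate genes. They held 6 and 4 UMIs of Sox10, a transcription factor of neural crest cells. No KO barcode without a gate held 10 or more Cx3cr1 UMIs. Whether the reads lie in Cx3cr1 exons or elsewhere in its long gene model was not tested.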

How the results depend on the processing

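Of 356 values recomputed under other settings, 275 were scored as unmoved and 81 as moved, and 0 changed the sign of a difference past the fixed size. That last score was open only to log2 values past 1.5-fold in the main setting, so most values could not receive it. Below that size, the median KO over WT ratio and the ratios of C1qc, Mrc1, Cx3cr1, Fcrls and Cd68 turned sign in at least 1 setting. Unmoved meant inside the counting interval. For counts of genes it meant within 1.5-fold, and for log2 medians without an interval within a fixed step. No paired analysis was possible because each genotype had 1 library and the labels number no replicates. Under 5% mitochondrial UMIs, 66 WT and 47 KO macrophages were left. The sum of the set was there 6962 CPM in WT and 8461 CPM in KO. The median log2 ratio over the 3 other tissues was 10.34 and 10.62. Endothelial Lyve1 stood at 6.45 and 1.09 CPM and endothelial Mrc1 in WT at 0 CPM. In this subset 3 genes passed 1.5-fold, and the share over all genes was not computed for it. Without the Csf1r requirement the macrophage share was 2.01% in WT and 1.87% in KO, the sum 7801 and 7688 CPM, and the median KO over WT ratio -0.078, so the direction of that median rests on the gate. With mixed barcodes counted as macrophages the WT share was 2.05% and the sums 7305 and 8282 CPM, and with barcodes from 1000 UMIs the WT share was 1.34%. Averaging per barcode gave sums of 9406 and 10839 CPM and a median log2 ratio over the other tissues of 11.29 in KO. It left 3 WT genes and 1 KO gene at least 10-fold over every class, and 0 genes past 1.5-fold. The shares of all genes were not computed for averaged CPM. Leaving out deep barcodes gave 8897 CPM in WT, leaving out barcodes with granulocyte genes 10077 and 11056 CPM, and subtracting free RNA a median log2 ratio over the other tissues of 10.04 in WT. Without the top barcode endothelial Lyve1 was 11.4 CPM in WT and 2.02 CPM in KO. The median share of macrophages with a UMI of a gene, 64.4% in both libraries after thinning to 2000 UMIs, was 78.3% in WT and 82.1% in KO at 5000 UMIs and 85.6% and 89.6% without thinning. The cause was not tested, except that thinning removes UMIs by construction. TMM factors, the removal of globin and mitochondrial UMIs from the total, and the removal of barcodes found in both libraries or of KO barcodes with a Pdgfrb UMI left Lyve1 alone past 1.5-fold. The limits are 1 library per genotype, 139 and 111 macrophages, 79 and 74 endothelial barcodes, and counts under 10 UMIs for most of the set in erythroid and endothelial barcodes.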
